A study of Mus musculus with 8 samples.

Results

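The genes described here encode 6 families of chromatin proteins: the histone methyltransferases of the Kmt and Setd families, the histone demethylases of the Kdm family, the histone deacetylases of the Hdac family, and the ATP-dependent remodellers and their partner subunits of the Chd and Smarc families. These descriptions are of the families, and single members can act on other proteins, as Setd3 does on actin. The genes were chosen by symbol from a table of GRCm38.p6 genes, as protein-coding genes whose symbol begins with one of these family names. This gave 70 of 21900 protein-coding genes, namely 10 Chd, 11 Hdac, 18 Kdm, 8 Kmt, 10 Setd and 13 Smarc genes. Their spans held 5875 of 1849087 CpG calls (0.318%), on 2243 reads, and the other protein-coding genes held 998417.

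Histone methyltransferases and demethylases add and remove methyl groups on histone tails, deacetylases remove acetyl groups, and the remodellers use ATP to move or evict nucleosomes. In embryonic stem cells these enzymes help to keep pluripotency genes open and developmental genes poised. Their own genes are mostly expressed widely and start in CpG islands, stretches dense in CpG that are usually free of DNA methylation and so offer TET enzymes little 5-methylcytosine (5mC) to oxidise to 5-hydroxymethylcytosine (5hmC).

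All libraries came from 1 mouse embryonic stem cell line in which the genes of TET1, TET2 and TET3 are inactivated, controls included. The line carries, on a PiggyBac transposon, the catalytic domain of mouse TET3 under doxycycline control, linked to mCherry, so a fragment of the enzyme acted on chromatin outside its natural regulation. Cells grew in 50 µg/ml ascorbate and received no doxycycline (0 h; replicates A, B and C) or 1 µM doxycycline for 6 h (A and B) or 12 h (A, B and C). APOBEC-coupled epigenetic sequencing (ACE-seq) glucosylates 5hmC and deaminates unprotected cytosine and 5mC, and the level used throughout is the percentage of CpG calls that remained undeaminated, that is 5hmC plus assay background.

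Coverage of these genes was thin. In the 70 genes there were 579, 278 and 279 calls at 0 h, 238 and 958 at 6 h, and 1306, 1564 and 673 at 12 h. A gene had 6 to 336 calls over all 8 libraries, with a median of 58.5, and 25 genes were called in every library. Of the calls, 98.6% lay at a position called once in its library, so no single CpG was followed over time. Calls on 1 read share a DNA molecule, and the intervals below cover counting error only. Whether replicates were separate cultures is not in the labels, so the spread that p-values are based on may be technical.

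The starts of these genes are shown first, because the genes' lowest levels lay there. RefSeq promoter windows of GRCm38.p6, each reaching from 250 bases before to 50 bases after a start, were matched by symbol for 54 of the 70 genes (72 windows). These windows held a median of 25.5 CpGs against 13 in 21191 windows of other protein-coding genes, and 33.3% of them held at least 30 CpGs against 15.4% of the others. The stretches below hold the called CpGs of the 4 windows with the most calls at 12 h among those with at least 30 CpGs and, for contrast, of the 2 windows with the most calls among those where most of the 12 h calls were undeaminated; they were chosen by their calls. Capitals mark the CpGs called at 12 h, and all are written 5′ to 3′ on the gene's strand. Kmt2c (minus strand, chr5:25498797-25498954) encodes a methyltransferase of histone H3 lysine 4 that acts at enhancers.
Kmt2c: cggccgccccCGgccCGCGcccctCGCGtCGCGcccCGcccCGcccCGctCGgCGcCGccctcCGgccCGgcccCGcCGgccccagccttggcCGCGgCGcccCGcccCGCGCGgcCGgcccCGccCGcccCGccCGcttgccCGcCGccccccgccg
Smarcd1 (plus strand, chr15:99702123-99702271) encodes a subunit of the BAF remodelling complex.
Smarcd1: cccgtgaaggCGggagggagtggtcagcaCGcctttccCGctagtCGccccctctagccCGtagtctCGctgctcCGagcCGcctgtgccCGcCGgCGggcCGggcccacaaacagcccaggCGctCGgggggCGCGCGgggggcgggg
Chd5 (plus strand, chr4:152338405-152338525) encodes a remodeller best known from neurons.
Chd5: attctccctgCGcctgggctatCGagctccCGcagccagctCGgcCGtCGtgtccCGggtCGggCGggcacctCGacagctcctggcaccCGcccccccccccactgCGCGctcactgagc
Smarca5 (minus strand, chr8:80739495-80739605) encodes the ATPase of the ISWI remodellers.
Smarca5: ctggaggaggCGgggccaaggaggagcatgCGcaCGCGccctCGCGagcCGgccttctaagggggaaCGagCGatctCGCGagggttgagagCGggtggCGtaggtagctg
The 2 windows with mostly undeaminated calls belong to starts inside the gene spans of Chd9 (plus strand, chr8:90828811-90828860), a remodeller, and Smarcd2 (minus strand, chr11:106267633-106267699), another BAF subunit.
Chd9: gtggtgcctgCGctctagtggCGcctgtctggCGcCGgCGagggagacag
Smarcd2: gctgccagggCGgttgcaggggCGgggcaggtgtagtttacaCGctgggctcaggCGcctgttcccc

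In the Kmt2c stretch 31 neighbouring CpGs were read on 1 molecule at 12 h and none was undeaminated. Smarcd1 had 0 of 17 on 1 molecule, Chd5 1 of 13 and Smarca5 1 of 13. On the Chd9 molecule 3 of 5 shown CpGs were undeaminated and on that of Smarcd2 3 of 4. The Smarcd2 window holds 4 CpGs in its 300 bases, and the Kmt2c window 56. Each stretch rests on a single molecule and shows what was read, not a level of the promoter in the culture.

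The first comparison asks how far 5hmC built up in these genes after induction. Together they had a level of 0.887% ± 0.541 in untreated cells (SD, n = 3), which was 5.50% ± 0.642 after 6 h (n = 2) and 23.9% ± 1.27 after 12 h (n = 3). By library it was 0.864%, 1.44% and 0.358% at 0 h, 5.04% and 5.95% at 6 h, and 22.7%, 23.7% and 25.3% at 12 h. The 3 times did not overlap. The difference of 23.0 points between 12 h and 0 h had p = 0.1 by a two-sided exact permutation test, the lowest that 6 libraries in these groups can give (0.2 after Benjamini-Hochberg adjustment over 4 tests of this kind). For 6 h against 0 h and for 12 h against 6 h the exact p was 0.2, also the lowest possible (adjusted 0.2 each). Over the 8 libraries Pearson's r with time was 0.956 and Spearman's rho 0.945, each with an exact permutation p of 0.00357 (adjusted 0.0143), the smallest of 560 arrangements. Without any 2 of the 0 h and 12 h libraries, which lie farthest from the median time, r was 0.919 to 0.954 over 15 pairs left out. Each library was read in 3 sequencing runs, and the rise was 21.7, 23.6 and 22.9 points within the runs.

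Other protein-coding genes went from 1.14% ± 0.175 through 6.43% ± 0.183 to 24.2% ± 2.28. The change in the difference between both sets from 0 h to 12 h was -0.08 points (two-sided exact permutation p = 0.9, adjusted 0.9 over 2 tests). Reads with 11 or more CpGs gained least, reaching 2.80% ± 0.504 at 12 h in the chromatin genes and 5.70% ± 1.60 in other genes, and held 14.3% of the calls in the chromatin genes against 10.3%. With each library's level set against that expected from its mix of CpGs per read, the chromatin genes lay 1.35 ± 0.261 points above expectation at 12 h (SD, n = 3) and -0.265 ± 0.602 at 0 h, a difference of 1.62 points. This had an exact p of 0.1, the lowest possible (adjusted 0.2), and within the 3 runs the difference was 0.452, 2.47 and 0.939 points.

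At 0 h, 6 of 65 genes with calls had any undeaminated call (9.23%, against 9.35% of other protein-coding genes), at 6 h 33 of 66 (50.0% against 39.8%) and at 12 h 69 of 70 (98.6% against 83.5%). Since this share grows with the calls per gene, it was also taken over genes with at least 10 calls, where it was 13.9% against 17.4%, 61.4% against 62.9%, and 98.5% against 94.7%. The exception at 12 h was Smarcd1, with 0 of 16 calls inside its span on 3 reads, which would allow up to 18.8% if calls were independent. The background at 0 h was 10 undeaminated calls of 1136 on 6 reads: 3 in Smarcal1, 2 each in Chd2 and Kmt2d, and 1 each in Hdac4, Hdac9 and Kmt2b. Of 783 reads with at least 2 CpGs at 12 h, 50.3% had no undeaminated call, 41.4% had both kinds and 8.30% were fully undeaminated.

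By family, the Kmt genes, writers of histone methylation, had the highest 12 h mean. They had 2.66% ± 2.78 (SD, n = 3) at 0 h, 3.23% ± 4.56 (n = 2) at 6 h and 30.8% ± 7.23 (n = 3) at 12 h. Their 12 h libraries had 24.6%, 29.1% and 38.8%, the last with 49 calls. Setd genes had no undeaminated call at 0 h, 9.15% ± 6.51 at 6 h and 23.9% ± 10.9 at 12 h. In library B 36.5% of Setd calls were undeaminated at 12 h, against 17.4% and 17.9% in A and C, so this family's mean rests on unlike libraries.

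Of the erasers, Kdm genes, which remove histone methylation, had 0 of 219 undeaminated calls at 0 h, 5.98% ± 0.379 at 6 h and 23.0% ± 3.89 at 12 h (20.3%, 21.2% and 27.4%). Hdac genes had 0.851% ± 0.739, 3.70% ± 0.353 and 23.4% ± 2.29 (24.5%, 20.8% and 25.0% at 12 h). The Hdac libraries spanned fewer points at 12 h than the Kdm libraries, of which C was the highest.

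Of the remodellers, Smarc genes, most of which encode subunits of BAF and related complexes, had 1.72% ± 2.99, 4.99% ± 0.154 and 26.9% ± 5.55, with 22.1%, 25.8% and 33.0% at 12 h. Chd genes, most of whose proteins pair a chromodomain with the ATPase, had 0.660% ± 1.14, 8.57% ± 5.56 and 21.9% ± 3.98, with 26.2%, 21.1% and 18.4% at 12 h. Library C was thus the lowest at 12 h in Chd and the highest in Kmt and Smarc. The family means at 12 h ranked Kmt, Smarc, Setd, Hdac, Kdm and Chd, and the neighbours in this order differed by less than their SD.

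**Figure D1:**
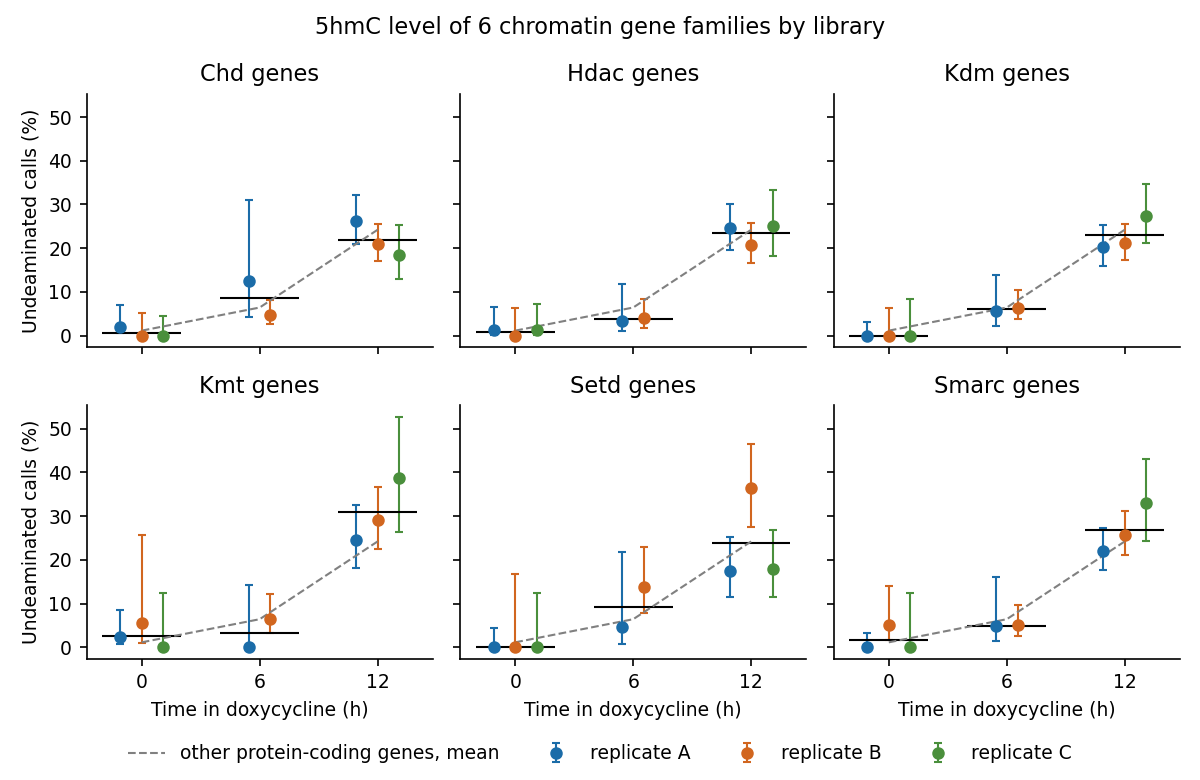
Percentage of undeaminated CpG calls (y axis) at 0, 6 and 12 h of doxycycline (x axis) in 6 chromatin gene families. Points are libraries with 95% Wilson intervals, black lines group means, and the dashed line the mean of the other protein-coding genes; in every family all 12 h libraries lie above all 0 h libraries, around the dashed line.

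Each family's gain was tested with limma among 320 families of protein-coding genes that share the letters of their symbol. All 6 families rose between 0 h and 12 h, by 21.3 ± 2.06 points in Chd (SE, adjusted p = 1.72e-06), 22.0 ± 1.70 in Hdac (adjusted p = 3.33e-07), 22.0 ± 1.64 in Kdm (adjusted p = 2.80e-07), 26.1 ± 2.96 in Kmt (adjusted p = 6.15e-06), 23.6 ± 3.82 in Setd (adjusted p = 9.52e-05) and 23.8 ± 2.59 in Smarc (adjusted p = 4.32e-06). Of all 320 families 99.4% rose, so the 6 of 6 is near the background. The 12 h libraries lay above all 0 h libraries in all 6 families and in 98.1% of all families. All families of a library share its rise, and the SE and p-values of gains take them as independent, so they may be far too small. By a quasi-binomial test the Setd gain did not pass (3.29 in log odds, adjusted p = 0.0735).

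The gain of a family minus that of its libraries, called its deviation, passed in 0 of the 6 families, at an adjusted or unadjusted limma p under 0.05, and in 0.312% of all families. It was 3.78 ± 2.72 points in Kmt (SE, adjusted p = 0.545), 1.51 ± 2.30 in Smarc (adjusted p = 0.773) and 0.69 ± 3.89 in Setd (adjusted p = 0.975). It was -0.401 ± 1.72 in Hdac (adjusted p = 0.947), -0.549 ± 1.41 in Kdm (adjusted p = 0.892) and -1.28 ± 2.30 in Chd (adjusted p = 0.806). Single libraries turned the sign of 4 of these values: without 12 h library B Setd had -5.60 points and Hdac 1.13, without 12 h library C Chd had 0.296, and without 0 h library A Smarc had -0.552. With 1 call per read Chd had 3.40, Kdm 4.14 and Hdac -6.98. On the log odds scale of a quasi-binomial test Kmt had -0.959, Smarc -0.676, Setd -0.124 and Kdm 0.367. None of these values passed, and no direction can be read from them.

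Set against the level expected from CpGs per read, the deviation again passed in 0 of 6 families (0 unadjusted), and in 0% of all 320. Here 5 families had positive values, 3.81 ± 2.67 points in Kmt, 3.56 ± 2.19 in Smarc, 3.26 ± 3.27 in Setd, 0.846 ± 1.43 in Kdm and 0.750 ± 1.86 in Chd (SE; limma adjusted p 0.631 to 0.943). Hdac had -0.468 ± 1.56 (adjusted p = 0.951). Without 12 h library B Setd had -1.10, Chd -0.112 and Hdac 0.927, and without 12 h library C Kdm had -0.121, so the sign holds without each library in Kmt and Smarc. With 1 call per read Hdac had -7.83. The median of the 6 was 2.05 points beside 0.215 points over all 320 families.

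**Figure D2:**
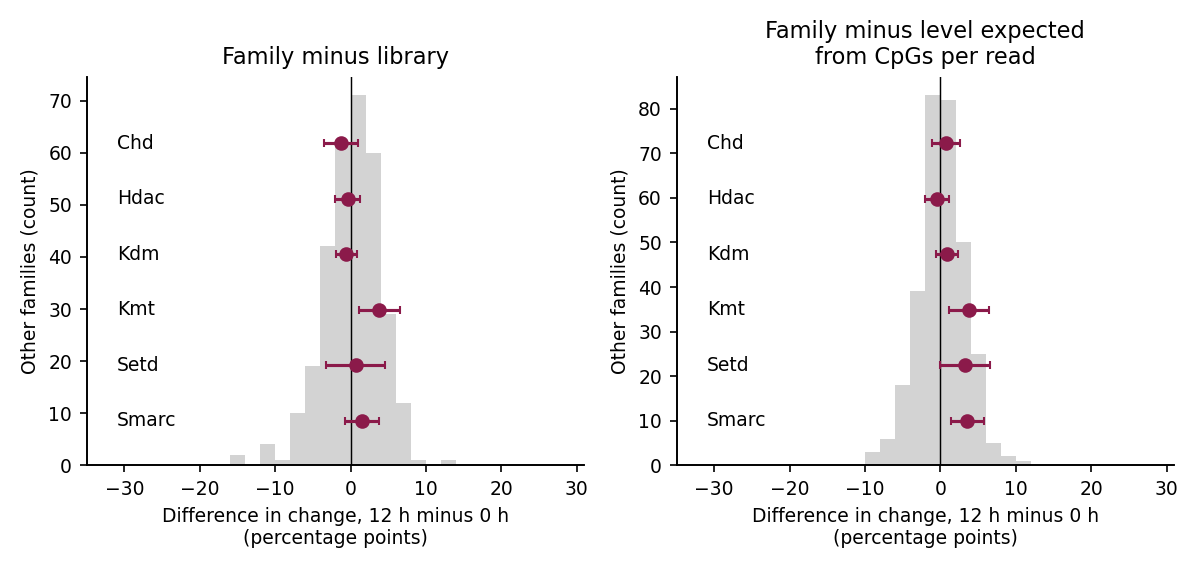
Change from 0 h to 12 h in family level minus library level (left) and minus the level expected from CpGs per read (right), in percentage points on the x axis. Points with SE bars are the 6 chromatin families, and grey bars count the other families (y axis); all 6 points lie within the bulk of the grey bars.

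Single genes were tested where every library had at least 10 calls, which left Hdac4 and Hdac9 of the 70 genes among 346 genes in all. Both encode class IIa deacetylases, which shuttle between nucleus and cytoplasm and are known from muscle and nerve. Hdac4 (chr1:91928779-92195702) had 1 of 42, 0 of 31 and 0 of 20 undeaminated calls at 0 h, 1 of 14 and 0 of 34 at 6 h, and 21 of 81, 20 of 93 and 2 of 21 at 12 h. Its 12 h library C was thus the lowest of the 3, on the fewest calls, but above the 0 h libraries. Hdac9 (chr12:34047580-34917095), the longest of the 70 genes, had 0 of 21, 0 of 13 and 1 of 14 at 0 h, 1 of 27 and 5 of 46 at 6 h, and 13 of 59, 10 of 90 and 8 of 66 at 12 h.

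Both genes rose, Hdac4 by 21.0 ± 3.22 points (SE, limma adjusted p = 8.68e-05) and Hdac9 by 12.8 ± 3.85 (adjusted p = 0.00736), as did 98.8% of the 346 genes. The gain of Hdac9 no longer passed with 1 call per read (10.7 points, adjusted p = 0.161), on the logit scale (1.30 in log odds, adjusted p = 0.340) or by a quasi-binomial test (1.22 in log odds, adjusted p = 0.158). The deviation of Hdac4 from its libraries was -1.21 ± 3.44 points (adjusted p = 0.911). That of Hdac9 was -10.2 ± 3.99 points, the seventh from the lowest of 346 genes, and did not pass (unadjusted p = 0.0281, adjusted p = 0.270). Of the 346 genes 2.02% deviated in either direction. Hdac9 reached 14.4% at 12 h (31 of 215 calls on 110 reads, 95% Wilson interval 10.3 to 19.7%) where 22.8% was expected from its CpGs per read. All of its 12 h calls lay in the gene body, and 0 of 32 were undeaminated on reads with at least 8 CpGs.

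The other genes are described by their pooled 12 h level, without a test. Of the 70 genes 54 had at least 20 calls at 12 h, with a median of 24.1% and a range from 5.31% to 62.5%. The 8934 other protein-coding genes with as many calls had a median of 23.0%. With at least 50 calls the medians were 23.5% in 24 chromatin genes and 24.1% in 3447 other genes. With at least 100 calls, 10 of the chromatin genes remained, between 5.31% and 25.4% with a median of 21.9%, and 1289 other genes had a median of 24.7%. Which set had the higher median thus changed with the calls required.

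Among the methyltransferases, Kmt2d (chr15:98831669-98874077), which marks enhancers on histone H3 lysine 4, had 29 of 118 calls undeaminated at 12 h (24.6%), with 12 of 48, 11 of 50 and 6 of 20 in the libraries. Kmt2a (chr9:44803355-44881352), the regulator of Hox genes, had 16 of 66 (24.2%), unevenly over its libraries with 4 of 22, 5 of 31 and 7 of 13. Kmt2c (chr5:25271795-25498855) had 18 of 66 (27.3%), with 5 of 21, 12 of 39 and 1 of 6. The 6 Kmt genes with at least 20 calls ran from 24.2% to 52.4%, the upper value in Kmt5b with 21 calls. Among Setd genes, Setd7 had 13 of 56 (23.2%), with 0 of 19 on 1 read at its end and 13 of 37 in its body. Setd3, which methylates actin, had 5 of 43 (11.6%), and Setd1b, a subunit of the COMPASS complexes that methylate histone H3 lysine 4, 7 of 32 (21.9%). The remaining Kmt2 genes, Kmt2b and Kmt2e, had 8 of 27 (29.6%) and 3 of 10. The Setd genes rest on 306 calls at 12 h over 10 genes.

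Among the demethylases, Kdm2b (chr5:122870664-122989270), which binds unmethylated CpG islands and recruits Polycomb proteins, had 37 of 150 undeaminated at 12 h (24.7%), with 12 of 61, 10 of 58 and 15 of 31 in the libraries. Kdm4a (chr4:118136957-118180090), which acts on histone H3 lysine 9 and 36, had 27 of 95 (28.4%), with 6 of 38, 10 of 38 and 11 of 19. In both genes library C was the highest and had the fewest calls. Kdm6b (chr11:69398508-69420367), which removes the Polycomb mark from histone H3 lysine 27, had the lowest level of the 54 genes, 6 of 113 (5.31%, Wilson interval 2.46 to 11.1%). All 6 undeaminated calls came from library A (6 of 34, against 0 of 45 and 0 of 34), on 3 of 19 reads. Of its 12 h calls 70 lay on reads with at least 8 CpGs, 2 of them undeaminated, and 15.9% was expected from its CpGs per read.

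Among the deacetylases beside Hdac4 and Hdac9, the class IIa gene Hdac7 (chr15:97792661-97844502) had 26 of 82 undeaminated at 12 h (31.7%), with 9 of 44, 4 of 16 and 13 of 22. Hdac5 (chr11:102195747-102230172), named for its value, had the highest level of the 54 genes, 25 of 40 (62.5%, Wilson interval 47.0 to 75.8%), on 10 reads. Its libraries had 5 of 7, 19 of 31 and 1 of 2, so 1 library holds most of the calls. The 4 class IIa genes therefore spanned 14.4% to 62.5%. At 0 h Hdac5 had 0 of 27 calls.

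Among the remodellers, Smarca4 (chr9:21616106-21704230) and Smarca2 (chr19:26605073-26778321), the alternative ATPases of BAF, had 24 of 110 (21.8%) and 30 of 119 (25.2%) undeaminated at 12 h. Smarca2 had 14 of 48, 12 of 48 and 4 of 23, and Smarca4 9 of 64, 12 of 34 and 3 of 12, so the ranges of both ATPases overlap. Smarcal1, which rewinds DNA at stalled replication forks, had 21 of 88 (23.9%). Chd9 (chr8:90828302-91054516) had 31 of 122 (25.4%), the highest of the 10 genes with at least 100 calls, with 16 of 39, 8 of 36 and 7 of 47. Chd7 (chr4:8690402-8868449), the gene mutated in CHARGE syndrome, had 33 of 152 (21.7%). Chd5 (chr4:152338646-152390194) had 20 of 150 (13.3%), with 6 of 28, 11 of 90 and 3 of 32. Of its calls 63 lay in the outer 1 kb, where 1 was undeaminated, and its body had 19 of 87 (21.8%).

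**Figure D3:**
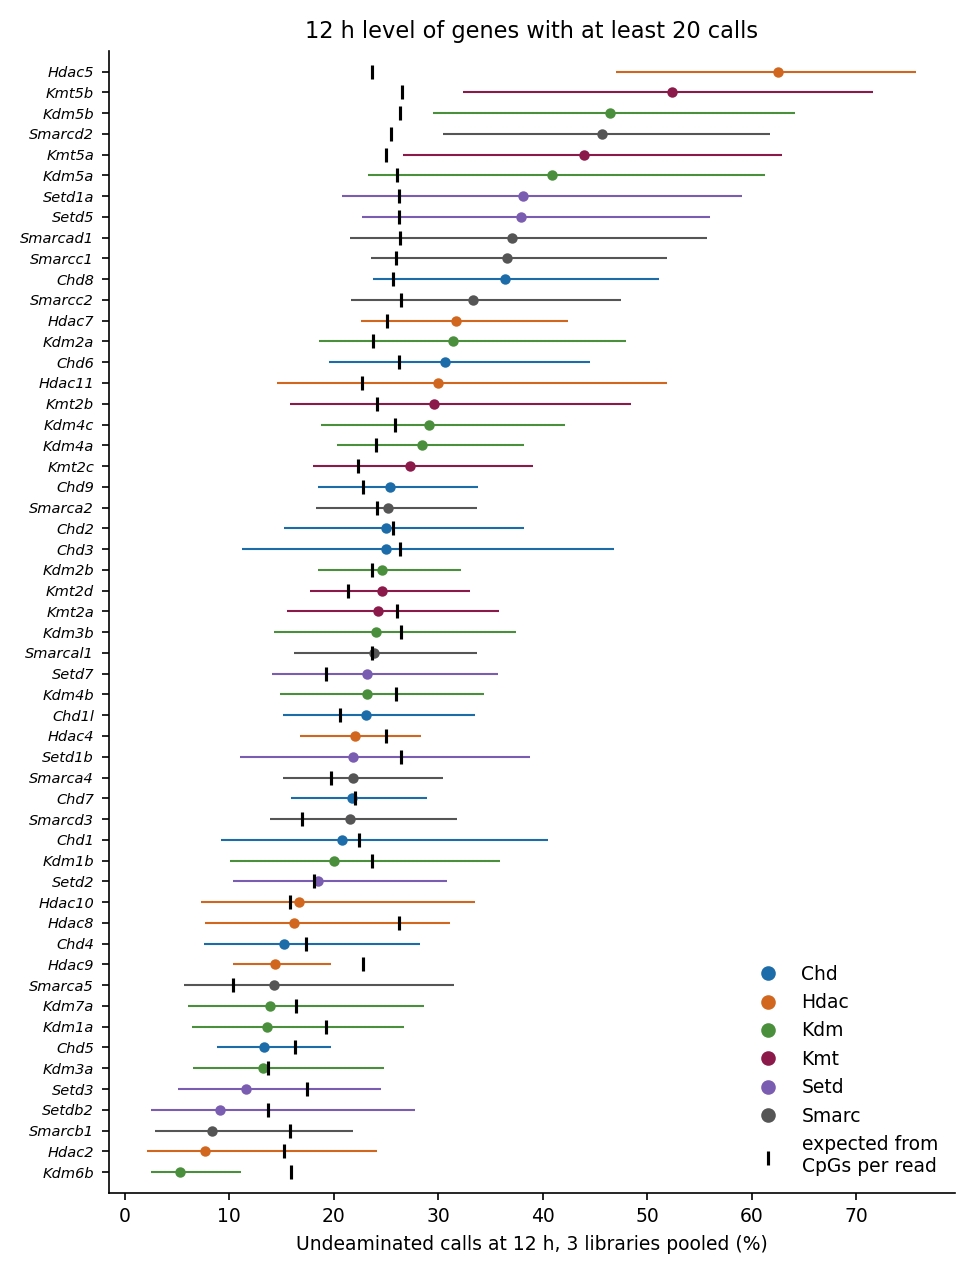
Percentage of undeaminated calls at 12 h, 3 libraries pooled (x axis), for the 54 chromatin genes with at least 20 calls (y axis), coloured by family, with 95% Wilson intervals. Black ticks give the level expected from CpGs per read; Kdm6b is lowest at 5.31% and Hdac5 highest at 62.5%, and the families are mixed along the axis.

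The next comparison sets the outer 1 kb inside both ends of each gene apart from its body. At the ends 0 of 137 calls at 0 h and 0 of 151 at 6 h were undeaminated, on 26 and 24 reads. If calls were independent this would allow levels of up to 2.19% and 1.99%, and with so few reads the limits are wider. At 12 h the ends had 11 of 215, 6 of 239 and 10 of 99 (5.12%, 2.51% and 10.1%), on 71 reads in all. The bodies had 1.01% ± 0.631 (SD, n = 3) at 0 h, 6.19% ± 1.00 (n = 2) at 6 h and 26.2%, 27.5% and 27.9% at 12 h. In all 5 treated libraries the ends were thus below the body, by 6.19 ± 1.00 points at 6 h and 21.3 ± 3.60 points at 12 h. The two-sided exact sign-flip permutation test over these 5 libraries gave p = 0.063, the smallest it can give (adjusted 0.075 over 6 tests). In other protein-coding genes the ends minus body difference was -3.78 ± 0.376 and -15.8 ± 0.929 points. It was more negative in the chromatin genes in 5 of 5 treated libraries, by 2.41 ± 1.38 points at 6 h and 5.48 ± 4.41 at 12 h (exact sign-flip p = 0.063, again the smallest possible, adjusted 0.075). In the untreated libraries A, B and C the same contrast between both sets was also negative, at -1.45, -1.29 and -0.0448 points. Their mean was -0.929 ± 0.770 (SD, n = 3), so the gap in treated libraries is not all a change after doxycycline.

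The ends of the chromatin genes are CpG-rich. There 77.5% of calls lay on reads with at least 8 CpGs, against 59.9% at the ends of other genes and 12.4% in the chromatin gene bodies. Body calls weighted to the CpGs per read of the ends had 11.2% at 12 h, 3 libraries pooled, and the ends 4.88%, which leaves -6.27 points of the pooled difference of -22.2. In other genes -7.66 points were left of -15.5. At 6 h the weighted difference was -3.65 points in the chromatin genes and -1.64 in the others. The chromatin genes thus had the larger weighted difference at 6 h and the smaller one at 12 h, a comparison that was not tested.

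Within classes of CpGs per read, the level of the chromatin genes at 12 h was 25.2% ± 1.49 on reads with 1 CpG, 25.8% ± 1.83 with 2, 29.9% ± 2.94 with 3 and 32.8% ± 8.12 with 4 to 5 (SD, n = 3). With 6 to 7 CpGs it was 24.0% ± 4.59, and with 8 to 10 CpGs 27.4% ± 22.8 (11.2%, 17.5% and 53.5%, the last from 43 calls on 5 reads) against 17.3% ± 1.98 in other genes. On reads with 11 or more CpGs, the class with the low level given above, 0 of 158 calls at 0 h and 0 of 132 at 6 h were undeaminated. At the ends, reads with 11 or more CpGs had 9 of 384 calls undeaminated at 12 h (2.34%) and in the body 6 of 164 (3.66%). On reads with 8 to 10 CpGs the ends had 5 of 68 (7.35%) and the body 47 of 176 (26.7%). In these pooled counts the gap between end and body was wider with 8 to 10 CpGs than with 11 or more. The values with 8 to 10 CpGs rest on 9 reads at the ends and 22 in the body. Their library means were 15.6% ± 19.1 and 31.8% ± 21.9 (SD, n = 3). The difference of ends and body within a class could not be fitted for the chromatin genes, since 1 untreated library had 1 call at their ends. In the other genes it fell in 6 of 7 classes (85.7%, limma), by 16.6 ± 0.753 points with 8 to 10 CpGs (SE, adjusted p = 1.15e-07) and by 4.55 ± 0.973 with 11 or more (adjusted p = 0.00209). On the logit scale 1 of the 7 classes passed.

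The strand of the promoter table tells the start of 54 genes from their far end. In the first 1 kb 1 of 170, 3 of 181 and 8 of 91 calls were undeaminated at 12 h (0.588%, 1.66% and 8.79%), on 43 reads. In the last 1 kb it was 4 of 20, 2 of 13 and 2 of 8 (20.0%, 15.4% and 25.0%), on 19 reads, and in the bodies 26.8%, 29.0% and 29.3%. The low level of the ends thus lay on the start side, and in every 12 h library the far end was above the start. In other genes the start had 6.89% ± 1.27, the far end 26.6% ± 2.98 and the body 26.5% ± 2.42. Start minus body was -24.7 ± 3.66 points in the chromatin genes at 12 h and -19.7 ± 1.18 in other genes, each with an exact sign-flip p of 0.063 over 5 libraries (adjusted 0.075). The difference between both sets, -5.05 ± 4.83 points at 12 h, changed sign between libraries (exact sign-flip p = 0.25, adjusted 0.25). Library C had the highest start level of the 3, and its 8 undeaminated calls lay on 3 of 7 reads.

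**Figure D4:**
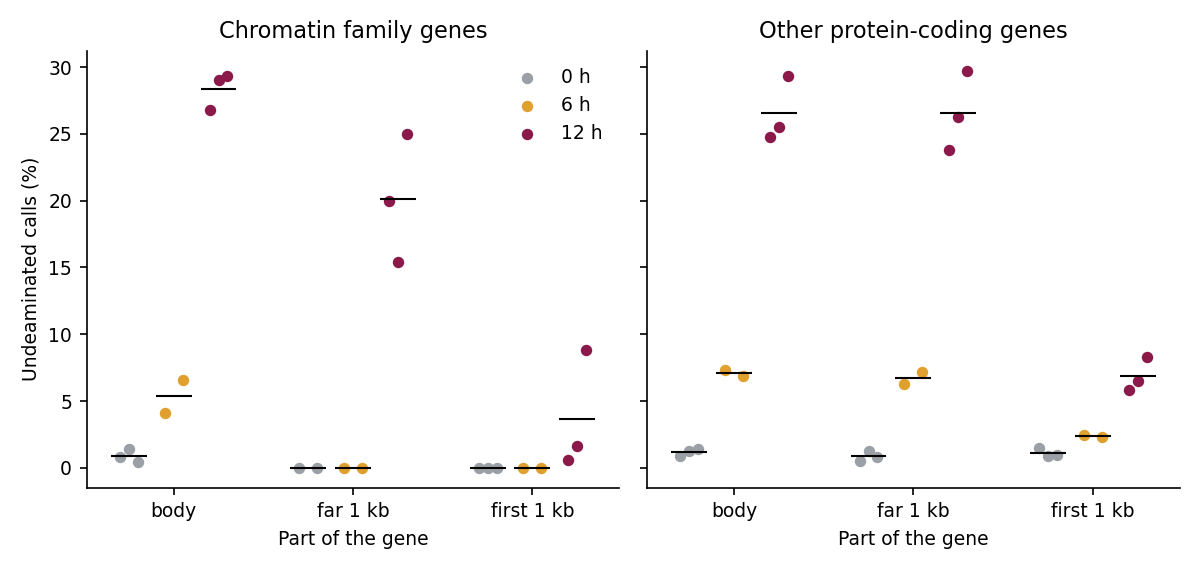
Percentage of undeaminated calls (y axis) in the body, far 1 kb and first 1 kb of genes with known strand (x axis), for chromatin genes (left) and other protein-coding genes (right). Points are libraries, coloured by time, and lines are group means; at 12 h the first 1 kb of the chromatin genes lies between 0.588% and 8.79%, under the far end and body in each library.

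Moving into the gene from its start, the 12 h level of the chromatin genes was 2.30% in the first 500 bases (7 of 304 calls), 3.62% from 500 to 1000 bases (5 of 138) and 6.76% from 1000 to 2000 (5 of 74), 3 libraries pooled. It was 23.0% from 2000 to 5000 bases (23 of 100), 27.7% from 5000 to 20000 (147 of 531) and 29.4% beyond (510 of 1732). In other genes the same steps had 5.58%, 8.51%, 16.1%, 23.6%, 26.6% and 26.5%. Levels in the chromatin genes were low out to 2000 bases, though the last step of this stretch rests on 20 reads and its libraries had 4.17%, 15.8% and 0%. Beyond 20 kb the chromatin genes had 29.3%, 28.1% and 33.3%, higher in each of the 3 libraries than other genes (25.4%, 26.0% and 30.5%), a difference that was not tested.

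**Figure D5:**
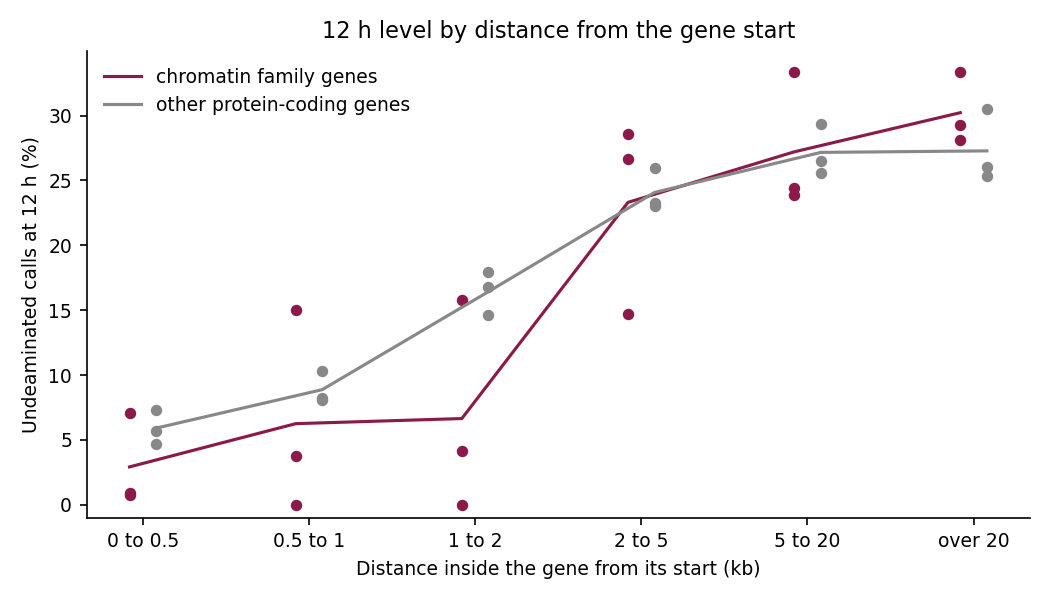
Percentage of undeaminated calls at 12 h (y axis) by distance inside the gene from its start (x axis, steps in kb), for chromatin genes and other protein-coding genes. Points are the 3 libraries and lines their means; chromatin genes rise from 2.93% in the first 500 bases to 30.2% beyond 20 kb.

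The promoter windows themselves had 0 of 42 undeaminated calls at 0 h and 0 of 68 at 6 h, on 8 reads each. If calls were independent this would allow up to 7.14% and 4.41%, and with so few reads the limits are wider. At 12 h they had 11 of 169 (6.51%), on 19 reads, and the windows of other genes 1125 of 22368 (5.03%). These windows reach outside the gene and include starts inside it. Their pooled 12 h share was not below that of other genes, unlike the first 1 kb of the gene spans. It leans on few molecules, since 3 of the 11 undeaminated calls lay on 1 Chd9 read and 3 on 1 Smarcd2 read. The difference from other genes was not tested, and no direction can be read from it. By number of CpGs in the window, the 12 h share was 3 of 5 with up to 9 CpGs, 4 of 25 with 10 to 19, 3 of 60 with 20 to 29 and 3 of 90 with 30 or more. Windows that overlap share calls, so these counts do not add up to 11. In other genes the shares were 22.9%, 4.78%, 2.83% and 2.85%, lower at each step, though the chromatin genes' shares rest on 2, 5, 6 and 8 reads. The undeaminated calls of the Smarcd2 and Chd9 stretches shown above fall in windows with 4 and 19 CpGs.

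Gene by gene, 30 of the 70 genes had at least 5 calls both at the ends and in the body at 12 h. In 24 (80.0%) the ends were lower, in 17 (56.7%) no end call was undeaminated, and 1 gene had equal levels. Of 4367 other protein-coding genes with as many calls the ends were lower in 78.6% and without an undeaminated call in 52.3%, so the shares are near this background. Of the 5 genes with the most end calls, Chd5 had 1 of 63 at its ends, Kdm3a, a demethylase of histone H3 lysine 9, 1 of 32, Smarca4 0 of 29, Chd1l, a remodeller that responds to DNA damage, 0 of 27, and Chd7 1 of 25. Their bodies had 21.8%, 28.6%, 29.6%, 35.3% and 25.2%. The end calls of each lay on 1 to 4 reads. The 5 genes with higher ends were Chd9 (3 of 9 at the ends, 28 of 113 in the body), Hdac10 (5 of 24 and 0 of 6), Setd1a (2 of 5 and 6 of 16), Setd2 (5 of 23 and 5 of 31) and Setd6 (1 of 9 and 1 of 10).

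Other chromatin genes outside the 6 families were summarised from 5 lists of 83 genes in all. Polycomb genes had 22.5% ± 1.80 at 12 h (SD, n = 3), histone acetyltransferases 26.0% ± 4.18, other histone methyltransferases 29.0% ± 8.82, other deacetylases and demethylases 21.3% ± 5.24, and other remodeller and NuRD subunits 30.6% ± 5.43. The 12 h level of the 70 genes lay within this range of means, and the lists were not tested against each other. Of the 83 genes 52 had at least 20 calls at 12 h, with a median of 26.9%. Of 2 that were tested singly, Smyd3 rose by 27.9 ± 2.59 points (SE, limma adjusted p = 3.70e-06) and Arid1b, a BAF subunit, by 27.3 ± 2.65 (adjusted p = 4.58e-06). Their deviations, 5.51 ± 2.19 points (adjusted p = 0.270) and 5.07 ± 2.39 (adjusted p = 0.379), did not pass.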

How the data were processed

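ACE-seq calls of 8 libraries were used, 3 at 0 h, 2 at 6 h and 3 at 12 h, grouped by sample title. Per the labels, 10 ng of DNA was cut to about 300 bp, and the libraries were read in 3 runs of 150 bp chemistry. Bismark's methylation extractor 0.22.3 wrote the deposited files, per the file headers; their unit is a call letter per CpG and read, undeaminated or deaminated, with no other value. The submitters' processing notes add Trim Galore and the build GRCm38; duplicate removal is not given in the sources used here.

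Calls were joined to gene spans of the GRCm38.p6 RefSeq gene table, which gives no strand or exons; strand came from the RefSeq promoter table. Of the calls in the 70 genes 1.82% also lay in another protein-coding gene. Of 306 calls in their promoter windows, counted once per window so that overlapping windows repeat calls, all fell on a CpG of the RefSeq sequence.

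Levels per library carry 95% Wilson intervals. Beside the zeros of the gene ends, the promoter windows and Smarcd1 stands the share that 3 counts make, and other zeros are given as counts or without a limit. Both take calls as independent. Families of at least 5 genes, and single genes, entered the fit from 10 calls per library upwards. Both were fitted over all 8 libraries and 3 groups with limma 3.58.1 in R 4.3.3, with weights of calls over binomial variance, Benjamini-Hochberg adjustment over all features and a threshold of 0.05. In the levels expected from CpGs per read, classes of 1, 2, 3, 4 to 5, 6 to 7, 8 to 10 and 11 or more CpGs took each library's levels over all protein-coding genes. Library levels were compared by exact permutation tests (scipy 1.17.1). On simulated data the family fit recovered 45.5%, 92.5% and 100% of deviations of 5, 10 and 20 points among 320 families, with 4 of 120 unchanged families called. The gene fit recovered 30.3%, 77.6% and 100% among 346 genes, with 1 of 146 unchanged genes called. The simulated calls were independent, without shared reads or added spread between libraries, and most features were changed. These shares can therefore be higher than in the data. In the data, deviations of -14.7 points in Hoxd and 12.6 in Muc did not pass (limma adjusted p = 0.0941 and 0.0719). That of -14.9 points in Rpl did (limma adjusted p = 0.0490).

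Named were genes tested singly, the 3 genes with the most calls per family, the 3 highest and 3 lowest at 12 h among those with at least 100 calls, and the 5 with the most end calls; others were chosen after their values were seen. The genes, families and lists were chosen with earlier results of these data known. The split of start and far end, the weighting of ends and body to equal CpGs per read and the promoter windows were added after seeing the data. Replicate letters were not used to pair the samples in the main fits. Correlations of deviations between libraries with the same letter were -0.0664 to 0.0903 over 7 pairs. With unlike letters they were -0.0903 to 0.0666 over 14 pairs. The 6 h libraries, centred on their own mean, give mirrored values, and calls per feature are few. These correlations therefore cannot tell whether the letters mark pairs.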

Additional observations from a re-analysis of the deposited data

How the results depend on the processing

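The alternatives were leaving out each library, 1 call per read, leaving out windows of 10 kb with at least 200 calls or identical reads of at least 4 CpGs, gene ends of 2 kb or with 1 kb outside, each run apart, at least 20 calls (10 within classes), no weights, the logit scale, median centring, the replicate block and a quasi-binomial test. With at least 20 calls Kmt, Setd, Hdac4 and Hdac9 gave no value. The rise of the 70 genes was 22.3 to 23.6 points without each library, 26.5 with 1 call per read and 21.7 in the first run. Its difference from other genes changed sign, with -0.419 to 0.523 points without each library, 1.31 with 1 call per read, and -1.74 and 0.621 in the first and second runs. Standardised for CpGs per read it was 1.29 to 1.88 without each library and 0.452, 2.47 and 0.939 in the 3 runs. Ends minus body at 12 h was -23.0 to -19.4 without each library and -12.9 in the first run. Start minus body was -26.8 to -23.4 without each library and -21.0 in the third run. All first-run values rest on 345 calls in the 70 genes over the 8 libraries. Of Hdac4 and Hdac9, 1 gene gained 5hmC with 1 call per read, on the logit scale and by the quasi-binomial test, where Hdac9 did not pass, and 1 of 7 classes passed on the logit scale; the cause was not tested. The 6 family gains passed in each other alternative that gave a value, 5 of 6 by the quasi-binomial test. No family of the 6 deviated under any of these alternatives, while the size and sign of most deviations moved. With the replicate block the same counts passed (0 of 6 families deviated, 6 of 6 and 2 of 2 genes gained, and 6 of 7 classes), and the rise of the 70 genes was 23.0 points, its difference from other genes -0.08 and the standardised one 1.62. Depth limits the gene ends, with 137 calls at 0 h and 151 at 6 h, and the far 1 kb, with 20 and 19.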
